A study of Homo sapiens with 2 samples.

Results

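The clustered protocadherins are cell-surface proteins of the cadherin superfamily, encoded by the tandem PCDHA, PCDHB and PCDHG gene clusters. They were taken as the protein-coding genes of GENCODE release 44 whose symbols start with PCDHA, PCDHB or PCDHG, matched by Ensembl identifier in the Nanopore and Illumina count tables. This gave 53 genes of the 58735 in the tables, with 15 alpha, 16 beta and 22 gamma genes, all on chromosome 5 and on the plus strand. The RNA came from MCF10a-Snail-ER cells, a derivative of the non-tumorigenic human mammary epithelial line MCF10a that stably carries the epithelial repressor Snail fused to the estrogen receptor. Both libraries came from cells given tamoxifen (100 nM, 1 day), which sets off the epithelial-to-mesenchymal transition in this line, and no untreated cells were analysed here. Polyadenylated RNA was sequenced once as native strands with an Oxford Nanopore direct RNA kit on a MinION, and once as amplified cDNA with an Illumina TruSeq stranded mRNA kit. Each platform had 1 library and hence no spread between replicates, so the intervals and tests given here reflect counting error alone.

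Each alpha or gamma gene starts with its own promoter and its own large variable exon, which encodes the extracellular cadherin repeats, the membrane span and part of the tail. That exon is spliced to a set of constant exons that all genes of the cluster share and that encode the common end of the cytoplasmic tail. Beta genes have no constant exons. The proteins bind their own kind on neighbouring cells and are best known from neurons, where each cell uses a different subset of promoters and the proteins serve self-recognition of its branches. Choice of promoter depends on the architectural proteins CTCF and cohesin, which bind at the variable promoters and at distal enhancers.

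The sharing is plain in the annotation, and the constant exons are shown because they are what the alpha or gamma genes have in common. In hg38 the alpha genes span chr5:140786136-141012347, the beta genes chr5:141051374-141249365 and the gamma genes chr5:141330514-141512977. The 15 alpha genes had 3 constant exons in common, of 59, 89 and 2721 bases (chr5:140978949-140979007, chr5:140982475-140982563 and chr5:141009627-141012347). The 22 gamma genes also had 3, of 59, 89 and 2029 bases (chr5:141494807-141494865, chr5:141505393-141505481 and chr5:141510947-141512975). In all, 2869 exonic bases were common to every alpha gene, 2177 to every gamma gene and 0 to every beta gene. The third exon of each cluster holds the stop codon and the untranslated 3′ end, with 308 coding bases in the alpha and 224 in the gamma cluster. The first and second constant exons, joined and read from the plus strand of hg38, are printed with the first exon in capitals and the second in lower case.
alpha constant exons: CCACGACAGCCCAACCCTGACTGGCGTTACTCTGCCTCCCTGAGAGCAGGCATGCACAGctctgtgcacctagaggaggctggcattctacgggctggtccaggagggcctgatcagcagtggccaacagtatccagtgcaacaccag
gamma constant exons: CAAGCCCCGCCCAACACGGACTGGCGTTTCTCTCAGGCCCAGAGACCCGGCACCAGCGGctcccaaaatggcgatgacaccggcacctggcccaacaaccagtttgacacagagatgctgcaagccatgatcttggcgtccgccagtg
The alpha and gamma copies were identical at 39 of 59 positions in the first exon and at 29 of 89 in the second. Of the 16 beta genes, 5 had only single-exon transcripts in the annotation, and the other 11 had a single-exon transcript beside shorter spliced ones.

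**Figure D1:**
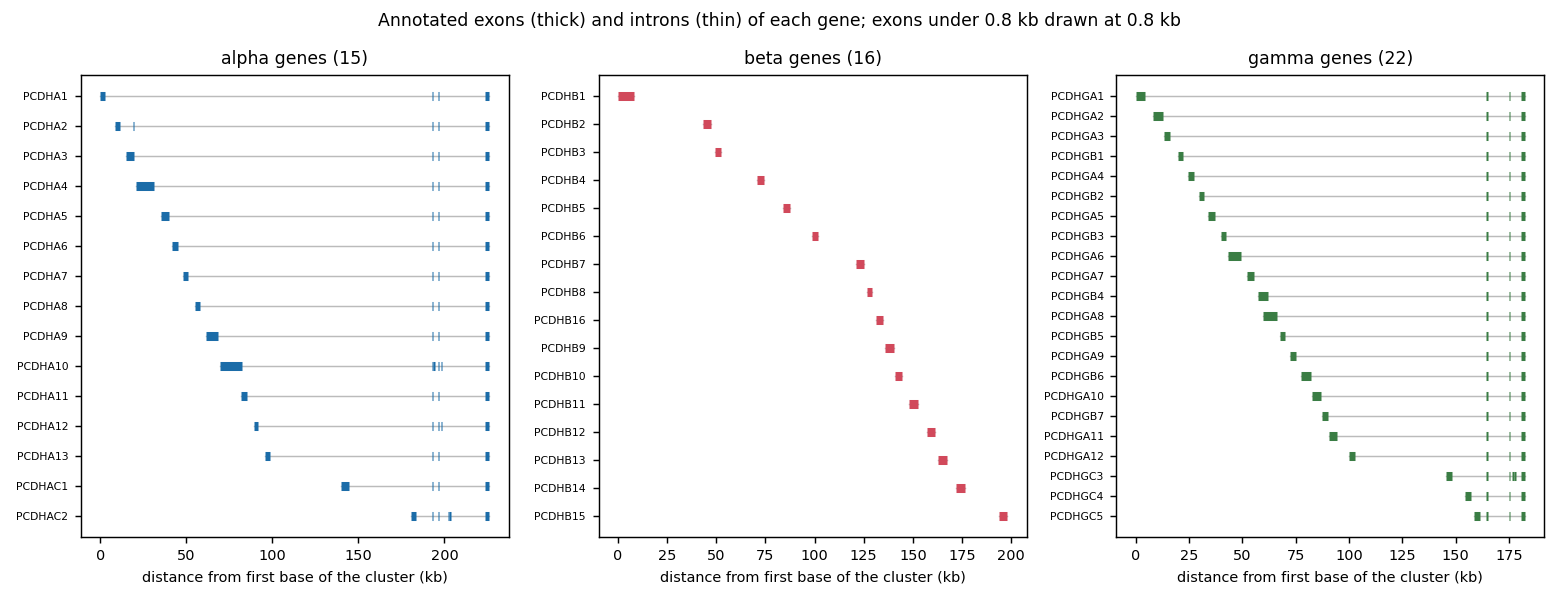
Annotated exons (thick bars) and introns (thin lines) of each gene, by distance in kb from the first base of its cluster, with short exons widened to be visible. The 15 alpha and the 22 gamma genes end in the same exons, while the 16 beta genes do not overlap in this way.

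Total counts were 403235 by Nanopore and 191741714 by Illumina. On the scale of counts per 1000000 (CPM), 1 Nanopore count equals 2.48 and 1 Illumina count equals 0.00522. A count of 0 allows a level of up to 3 counts, or 7.44 CPM by Nanopore and 0.0156 CPM by Illumina. No clustered protocadherin reached 3 Nanopore counts. The cells' identity was checked with marker lists: all 8 mammary basal markers had counts in both libraries, with KRT5 at 1686 CPM by Nanopore and 1447 CPM by Illumina. All 4 luminal and all 3 mesenchymal markers also had counts in both, with KRT8 at 389 and 209 CPM and VIM at 1736 and 1828 CPM by Nanopore and Illumina. Levels within each list differed widely. By Nanopore and Illumina, the basal TP63 was at 12.4 and 33.2 CPM, the luminal EPCAM at 7.44 and 4.02, and the mesenchymal CDH2 at 19.8 and 24.7. Of 10 neuronal markers, 2 had a Nanopore count and 7 an Illumina count, and ELAVL4, STMN2 and NEFL were listed at 0 in both. TUBB3, a tubulin that is not restricted to neurons, made up 23093 of the 24177 Illumina counts of that list. Of 5 fibroblast markers, 2 had a Nanopore count and all 5 an Illumina count, led by DCN with 5075.

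Across the gamma genes the counts were close to constant in both libraries. The Nanopore count was 2 in all 22 genes. The Illumina count ran from 4600 to 6430 with a median of 4607, and 15 of the 22 genes lay within 20 counts of the lowest. Exactly 4600 counts were found for 3 genes, PCDHGA3, PCDHGB3 and PCDHGB5, and for no other gene in the table. Within 2% of the lowest count lay 20 of the 22 gamma genes and 56 other genes of the table. The same narrow band was seen among the alpha genes: 14 had 1 Nanopore count, PCDHAC2 had 0, and the Illumina counts ran from 688 to 993 with a median of 691. Exactly 688 Illumina counts were found for 6 alpha genes (PCDHA2, PCDHA3, PCDHA5, PCDHA7, PCDHA8 and PCDHA9) and for 1 gene outside the cluster.

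Beta genes, in contrast, differed widely. Their Illumina counts ran from 0 to 484 with a median of 41.5, and only PCDHB2, PCDHB10 and PCDHB14 had a Nanopore count, of 1 each. The highest count over the lowest was 1.40 among gamma genes and 1.44 among alpha genes. Such a ratio has no value for beta genes, since PCDHB1 and PCDHB11 had no count in either library. Nanopore counts were thus present for 36 of 37 alpha and gamma genes and for 3 of 16 beta genes. Summed over genes these were 14 alpha, 44 gamma and 3 beta counts, but in no alpha gene was the count above 1 and in no gamma gene above 2. How reads in shared exons were assigned to genes is not given in the sources used here, and a count cannot be split between genes from the tables alone.

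**Figure D2:**
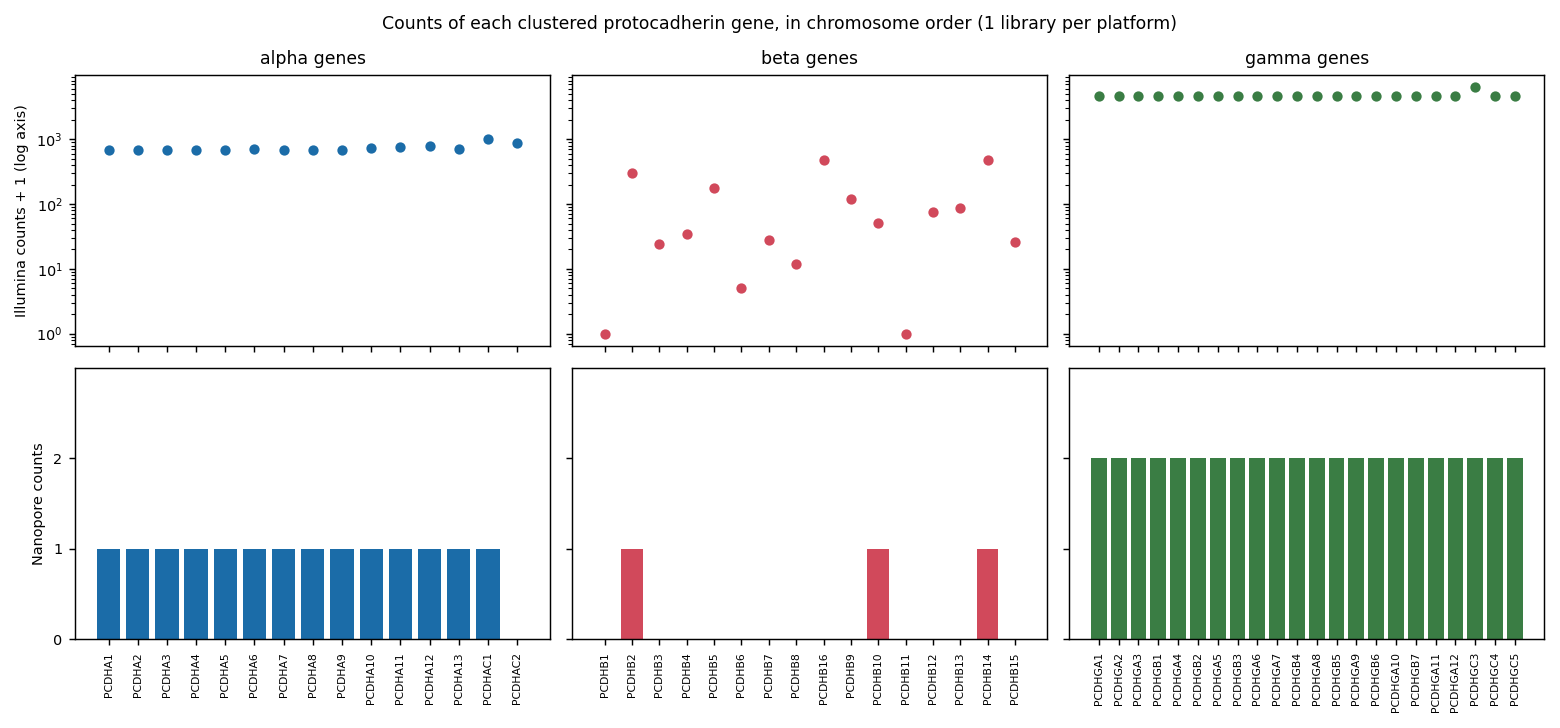
Illumina counts plus 1 (upper row, log axis) and Nanopore counts (lower row) of each gene in chromosome order, 1 library per platform. The alpha genes sit between 688 and 993 Illumina counts and the gamma genes between 4600 and 6430, while the beta genes scatter from 0 to 484.

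If the lowest count of a cluster is taken as the part common to its genes, the remainder can be set out gene by gene. Intervals on shares of a remainder treat that lowest count as fixed. In the gamma cluster this remainder was 2244 counts over 22 genes. PCDHGC3 (ENSG00000240184, chr5:141475947-141512977), a C-type gene of the gamma cluster that lies near the constant exons, had 6430 Illumina counts and so 1830 above the lowest. That was 81.6% of the gamma remainder (95% exact binomial interval 79.9 to 83.1%). PCDHGA12 followed with 102 counts above the lowest (4.55%, 3.72 to 5.49%), then PCDHGA10 with 72, PCDHGB7 with 52, and PCDHGA6 and PCDHGA11 with 37 each. The intervals of PCDHGC3 and PCDHGA12 did not overlap. PCDHGC3 also has annotated exonic bases between the constant exons, within the bodies of the other gamma genes. Whether reads from other gamma genes were counted for PCDHGC3 there was not tested, and its interval does not cover this. The other C-type genes stood apart from PCDHGC3, with 4 counts above the lowest for PCDHGC4 and 18 for PCDHGC5. The 12 gamma A genes held 317 counts above the lowest with a median of 12.5 a gene, and the 7 gamma B genes held 75 with a median of 3.

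The alpha remainder was spread more evenly and was smaller, at 743 counts. The C-type genes PCDHAC1 (ENSG00000248383, chr5:140926299-141012347) and PCDHAC2 (ENSG00000243232, chr5:140966470-141012347) had 993 and 886 Illumina counts. Their 305 and 198 counts above the lowest were 41.0% (37.5 to 44.7%) and 26.6% (23.5 to 29.98%) of the alpha remainder, with intervals that did not overlap. PCDHA12 had 103 counts above the lowest, PCDHA11 had 63 and PCDHA10 had 37. The 13 numbered alpha genes together held 240 such counts, with a median of 1, and 6 of them held 0. Inside the variable exon of PCDHA12 lies the antisense lncRNA ENSG00000278915 with 35 Illumina counts. Whether strand was used in counting is not given in the sources used here, so reads of this pair may not be separated. The pseudogene PCDHA14, with 16 Illumina counts, shares exonic bases with PCDHA10 on the same strand. How reads there were assigned is not given either, so the 37 counts of PCDHA10 are uncertain. PCDHAC2, PCDHA10 and PCDHA12 also have annotated exonic bases between the constant exons, within the bodies of other alpha genes. Whether reads from other alpha genes were counted for them there was not tested, so their counts above the lowest are uncertain. The interval on the share of PCDHAC2 does not cover this.

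Beta genes carry no constant exon, so their whole counts were used. PCDHB16 (ENSG00000272674, chr5:141182387-141186226) had 484 Illumina counts and PCDHB14 (ENSG00000120327, chr5:141223343-141227759) had 480, or 25.5% (23.6 to 27.6%) and 25.3% (23.4 to 27.4%) of the 1895 beta counts. These shares did not differ beyond counting error. PCDHB2 had 301 counts, PCDHB5 had 176 and PCDHB9 had 120. Those 3 shares, 15.9% (14.3 to 17.6%), 9.29% (8.02 to 10.7%) and 6.33% (5.28 to 7.52%), had intervals that did not overlap each other. At the low end PCDHB6 had 4 counts and PCDHB8 had 11. PCDHB1 and PCDHB11, at 0, lay at or under 0.0156 CPM by Illumina.

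Per length of exon that no other gene on the same strand holds, PCDHGC3 was again the highest of the 53 genes, at 563 Illumina counts per kb above the lowest. PCDHB16 was at 132 counts per kb, PCDHB14 at 113, PCDHAC1 at 73.5, PCDHB2 at 73.5 and PCDHAC2 at 60.1. PCDHB5 was at 51.6, PCDHA12 at 39.8 and PCDHGA12 at 37.6. These are levels within the Illumina library, and annotated exons that the cells do not use lower them. For PCDHGC3, PCDHAC2 and PCDHA10 the length includes exonic bases between constant exons, within the bodies of other genes of their clusters. Whether the counts there include reads from those other genes was not tested. The lowest count of each cluster, set over its shared exons, came to 2113 counts per kb in the gamma and 240 in the alpha cluster, an 8.81-fold difference. The per-kb values above the lowest, summed over the genes, came to 685 in the gamma, 208 in the alpha and 487 in the beta cluster.

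**Figure D3:**
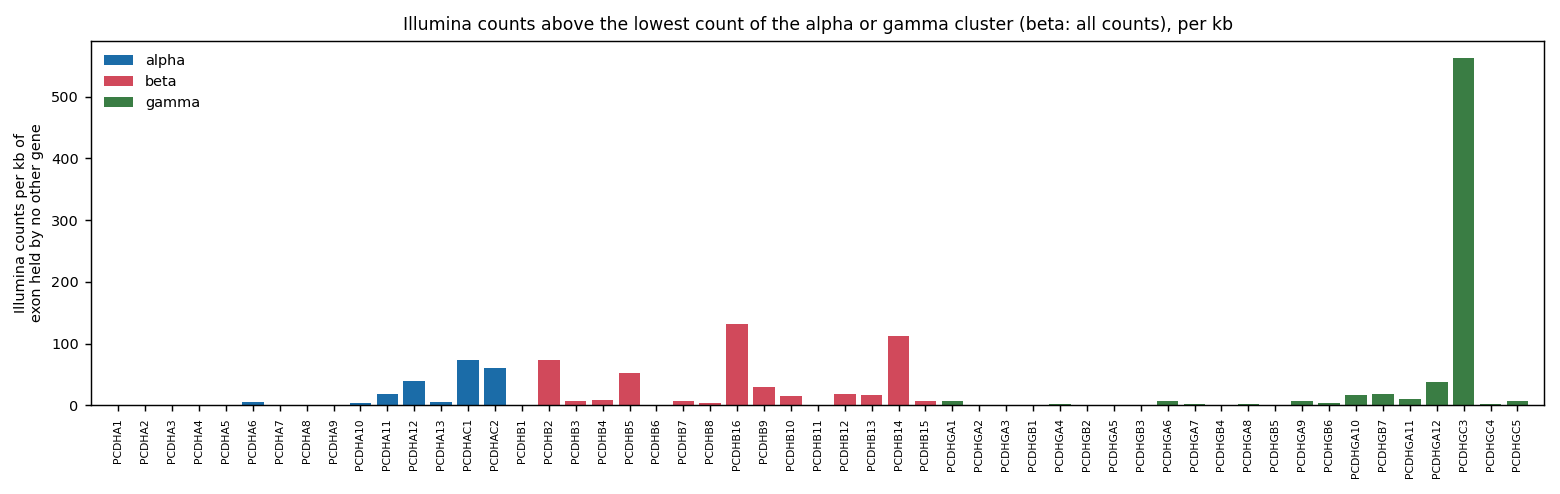
Illumina counts above the lowest count of the alpha or gamma cluster, and all counts of the beta genes, per kb of exon that no other gene on the same strand holds. PCDHGC3 stands at 563 counts per kb, and the next highest genes are PCDHB16 at 132 and PCDHB14 at 113.

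Sequence shared between genes limits how firmly single members can be read. Of all 50-base words in a member's exons outside the constant exons, those that also occur in another member or in a protocadherin pseudogene of the clusters made up a median of 6.59% for alpha, 14.8% for beta and 5.08% for gamma genes. The highest shares were 45.6% for PCDHB8, 35.3% for PCDHB10 and 28.0% for PCDHA8, and these genes' counts are uncertain. PCDHB9 was at 21.0%, PCDHB2 at 20.4%, PCDHB16 at 14.9%, PCDHB5 at 12.4% and PCDHB14 at 11.4%. The intervals on the beta shares do not cover this. In PCDHB16, 1 lncRNA on the same strand (ENSG00000279068, 41 Illumina counts) and 1 on the opposite strand (ENSG00000278936, 96) also shared exonic bases. ENSG00000279068 shared exonic bases with PCDHB9 as well.

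The libraries were then compared gene by gene. To each CPM value 1 was added before the log2 ratio of Nanopore to Illumina was taken, and this shrinks the ratio of low genes. The test was a two-sided exact conditional binomial test on the counts, run on all 27972 genes with a count in either library, with Benjamini-Hochberg adjustment over all of them. It compares these libraries and not the platforms in general. Of all genes tested, 10.5% were called higher by Illumina and 11.6% higher by Nanopore at an adjusted p under 0.05. Among the 51 members tested, 22 (43.1%) were called higher by Illumina and 0 higher by Nanopore, and the 22 were the complete gamma cluster.

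For PCDHGC3 the Nanopore level was 4.96 CPM (95% exact interval 0.601 to 17.9, from 2 counts) and the Illumina level was 33.5 CPM. The log2 ratio of PCDHGC3 was −2.53 (adjusted p of 0.00207 by the exact test). At the Illumina share, 13.5 Nanopore counts would have matched the observed 2. The other 21 gamma genes had log2 ratios from −2.10 (PCDHGA12) to −2.07 (PCDHGA3), and adjusted p-values by the exact test from 0.0298 to 0.0347. All 22 had 2 Nanopore counts and at least 4600 Illumina counts and share annotated exons, so the calls cannot be taken as 22 separate observations. Whether the same reads were counted for each gene was not tested. Counted once, the gamma cluster had 2 Nanopore counts, the highest of any gamma gene, and 6844 Illumina counts, the lowest plus all remainders. This gave a log2 ratio of −2.62 (adjusted p of 0.00104 by the exact test, over 27937 features), a calculation chosen after seeing the data. It used total counts and was not repeated under another scaling. Summed gene by gene, the Illumina counts of the gamma genes were 103444, which is 15.1 times the once-counted 6844.

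The gamma calls depended on the scaling. With TMM factors, which raise the Nanopore to Illumina ratio by 0.088 on the log2 scale, 3 of 22 gamma genes were called higher by Illumina, and with scaling by the median ratio (a rise of 0.13), 1 was. With the Illumina counts divided by union exonic length none of the 22 was called, and the adjusted p-values by the exact test ran from 0.266 to 1. The gamma median log2 ratio, −2.07 with total counts, was −1.23 with that division and 0.14 when the length was that of the private exons alone. With union length 4.78% of all genes were called higher by Illumina and 14.8% higher by Nanopore.

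No alpha gene was called in either direction, with adjusted p-values by the exact test between 0.772 and 1. At the Illumina share each alpha gene would have had 1.45 to 2.09 Nanopore counts. A lower Nanopore level of any alpha gene was therefore not detectable at this depth. The alpha median log2 ratio was −0.40. Division by union exonic length turned this median to 0.38, and by private exonic length to 1.10. Counted once, the alpha cluster had 1 Nanopore count, the highest of any alpha gene. Its 1431 Illumina counts were the lowest count plus all remainders. The adjusted p was 0.930 by the exact test, where 3.01 Nanopore counts would have matched the Illumina share. Nor was any of the 14 tested beta genes called, with adjusted p-values by the exact test between 0.556 and 1. The beta median log2 ratio was −0.18, beside −0.11 for all genes tested. Most beta genes had 0 Nanopore counts, so the beta median rests largely on the added 1 CPM. With 0.1 CPM added, the beta median was −1.24. Summed over the beta genes, 3 Nanopore counts stood beside 3.99 expected at the Illumina share. The largest such value for a single beta gene was 1.02, for PCDHB16, so a lower Nanopore level of any beta gene was not detectable at this depth. The 7.44 CPM that a Nanopore count of 0 allows lies above the Illumina level of every beta gene, of which PCDHB16 was the highest at 2.52 CPM.

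**Figure D4:**
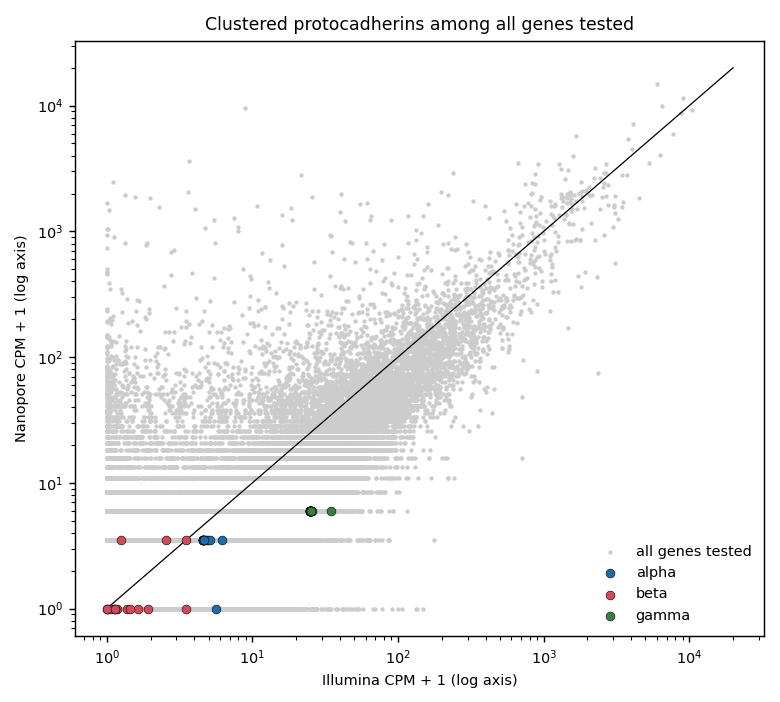
Nanopore against Illumina CPM plus 1 on log axes for all 27972 genes tested (grey) and the alpha, beta and gamma genes (coloured), with the line of equal CPM. The 22 gamma genes lie at 4.96 Nanopore CPM below the line, with PCDHGC3 at 33.5 Illumina CPM farthest to the right.

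The few Nanopore counts in the clusters can be set beside the overlap of gene bodies, introns included. Among the alpha genes, no base of the annotation was exonic in the other 14 genes and not in PCDHAC2, the only one without a count. The bodies of those 14 genes do cover 40171 bases between the start of PCDHAC1 at 140926299 and the start of PCDHAC2 at 140966470, which lie outside the body of PCDHAC2. The single count of PCDHB10 had counterparts of 1 in the antisense lncRNA ENSG00000278936, which covers the whole of PCDHB10 but shares 0 exonic bases with it, and of 1 in ENSG00000279375, which shares 45. The lncRNA ENSG00000280029, on the minus strand, had 2 Nanopore counts, and its body contains both PCDHB10 and PCDHB14, with 0 exonic bases shared with either. PCDHB16 and PCDHB9, which also lie within it, had 0 Nanopore counts. PCDHB14 and ENSG00000279983, a protein-coding gene that shares 169 exonic bases with it, had 1 Nanopore count each. PCDHB2 and PCDHB1-AS1, which share 1797 exonic bases on opposite strands, had 1 each as well. The Illumina counts did not follow the nested bodies: along the alpha genes in chromosome order they rose at 6 and fell at 5 of 14 steps, although the body of each gene contains the bodies of all that start after it. How reads in introns or on the opposite strand were counted is not given in the sources used here, and its part in these values was not tested.

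Promoters of the clusters are known for a conserved element near the start site with a CGCT core, which overlaps a CTCF binding site. Upstream sequences from RefSeq (GRCh38.p14), 250 bases before to 50 after each start, were matched for 47 of the 53 genes, and the motifs searched were chosen after reading these sequences. The motif GGTGGCGCT, on either strand, was in 13 of 14 matched beta genes, in 0 of 13 alpha and 0 of 20 gamma genes, and in 0.501% of all 35116 promoter sequences. PCDHB1 was the matched beta gene without it, and PCDHB6 and PCDHB11 were not matched. A motif of CGCTGT, any 3 bases and CCA was in 6 of 13 alpha, 12 of 20 gamma and 0 of 14 beta genes, and in 0.310% of all sequences. The core CGCT alone was in 46 of the 47 genes but also in 70.0% of all promoter sequences, so it sets little apart. Windows of 26 bases are shown for the 3 beta genes with the most Illumina counts, for PCDHB3 with 23 counts, and for PCDHGC3 and 2 genes near the lowest count of their cluster, with the motif in capitals.
PCDHB16, chr5:141182313-141182338, plus strand: gaacgcgtGGTGGCGCTgcaggttaa
PCDHB14, chr5:141223266-141223291, plus strand: agacacatGGTGGCGCTacaggataa
PCDHB2, chr5:141094547-141094572, plus strand: agacgcggGGTGGCGCTgcagcctta
PCDHB3, chr5:141100396-141100421, plus strand: gaacgcatGGTGGCGCTgttgactaa
PCDHGC3, chr5:141475883-141475908, plus strand: ggactctgtgtgcCGCTGTCGGCCAa
PCDHGA2, chr5:141338706-141338731, plus strand: ggcctctgagcgtCGCTGTTGACCAc
PCDHA2, chr5:140794784-140794809, plus strand: agccacatgatgtCGCTGTCCACCAt
The second motif was in PCDHGC3, PCDHAC2, PCDHA10 and PCDHGA6, and also in PCDHGC4, which had 4 counts above the lowest. It was not found for PCDHAC1, PCDHA11, PCDHA12, PCDHGA10, PCDHGA11 and PCDHGB7. Among matched genes at the lowest count, PCDHA2, PCDHA8, PCDHGA3 and PCDHGB5 had it, and PCDHA5, PCDHA7, PCDHA9 and PCDHGB3 did not. PCDHGA2, which had 1 count above the lowest, also had it. PCDHA3, PCDHA13, PCDHGA12 and PCDHGC5 were not matched. A match of letters is a description and does not show that a factor binds.

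Genes that control the clusters or partner their proteins were present in both libraries with few exceptions. Per kb of union exonic length the regulators ran from 332 Illumina counts (SMCHD1) to 3865 (RAD21). Of 14 regulators, all had counts in both libraries and 10 were called higher by Illumina, 0 higher by Nanopore, with a median log2 ratio of −1.14. The share called higher by Illumina was 10.5% of all genes tested and 27.2% of those with a mean of at least 5 CPM, where all 14 regulators lie. CTCF, which brings variable promoters and enhancers together, had 9 Nanopore and 10800 Illumina counts (log2 ratio −1.30, adjusted p of 0.0116 by the exact test). RAD21, a cohesin subunit, had 84 and 55584 counts, and SMC1A, which forms the cohesin ring, had 25 and 39812. SMCHD1, a repressor that acts on the clusters, had 8 and 7941 counts and was not called. REST, a repressor of neuronal genes, had 21 and 6225 counts (log2 ratio 0.67, adjusted p of 0.190 by the exact test). Of 17 genes for cleavage of the proteins or for their signalling partners, 16 were tested, and 6 were called higher by Illumina and 0 higher by Nanopore, beside the same 10.5% and 27.2% of all genes. ADAM10, the protease that sheds the extracellular part, had 19 and 15789 counts (log2 ratio −0.79, adjusted p of 0.0494 by the exact test). PTK2, the focal adhesion kinase that protocadherin tails bind, had 22 and 23834. Calls for these lists and for neighbouring genes use total counts, and they were not recomputed under the other scalings.

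Protocadherins encoded outside the clusters have no shared constant exons. Of 14 such genes 10 were tested and none was called by the exact test. Illumina counts were highest for PCDH7 with 3652, PCDH9 with 3108 and PCDH1 with 1971, beside 4, 5 and 2 Nanopore counts. Per kb of union exonic length these were 283, 100.4 and 333 Illumina counts. The 563 per kb of PCDHGC3 is a different measure, of counts above the lowest over its private exons alone. PCDH8, PCDH10, PCDH17 and CDHR1 were listed at 0 in both libraries.

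Other genes within the span of the clusters were mostly low. Of the 28 non-coding genes in the tables there, 13 had an Illumina count and 4 a Nanopore count, and none had more than 96 Illumina counts. The 6 protocadherin pseudogenes summed to 20 Illumina counts and 0 Nanopore counts, with 16 in PCDHA14 and 3 in PCDHB19P. TAF7, a subunit of the general transcription factor TFIID between the beta and gamma clusters, had 30 Nanopore and 24346 Illumina counts, and SLC25A2 beside it was listed at 0 in both. The nearest protein-coding genes on either side were ZMAT2, with 41 and 31373 counts, and DIAPH1, with 40 and 60382. DIAPH1, TAF7 and ZMAT2 were called higher by Illumina, with log2 ratios of −1.66, −0.76 and −0.68 and adjusted p-values by the exact test of 1.08e-17, 0.0115 and 0.00824. The lncRNAs ENSG00000280029 (2 Nanopore and 36 Illumina counts) and ENSG00000279375 (1 and 0) were called higher by Nanopore. Adjusted p-values by the exact test were 0.0289 and 0.0214, on 2 and 1 Nanopore counts. Any gene with 1 Nanopore and 0 Illumina counts takes the latter value, so that call was fixed by the library totals. Of all genes tested, 10.5% were called higher by Illumina and 11.6% higher by Nanopore.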

How the data were processed

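Per the deposited tables, the authors gave whole-number counts per Ensembl gene without normalization. The submitters' processing notes name hg38, minimap2 2.11-r797, HISAT2 2.1.0 and featureCounts, with no role or order. Annotation release, options, and the handling of strand, introns and reads that overlap several genes are not given in the sources used here, and they bear on every gene whose exons or body overlap another's.

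Names, exons and coordinates came from GENCODE release 44 (58207 of 58735 identifiers matched), and sequences from hg38 and RefSeq. CPM used total counts. With 1 library per platform no model of replicate spread could be fitted. Genes with at least 1 count in either library took an exact conditional binomial test (scipy 1.17.1, double the smaller tail, Benjamini-Hochberg). It was tried on simulated data in which only genes with Illumina levels above those of every alpha and beta gene were changed. The simulation therefore does not cover the power for alpha and beta genes. The main test used no filter on mean CPM, since 1 Nanopore count alone is worth 2.48 CPM. Intervals are 95% exact (Clopper-Pearson). Because the Illumina cDNA was amplified, its reads need not be separate molecules, and intervals and floors cover counting error only.

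Members of each subfamily were named by the 5 highest Illumina counts (6 gamma genes, with a tie), by the extremes, and as C-type genes. Other genes named came from pathway and marker lists or were chosen by position. The values of 1 listed gene are not reported here. The members and lists were chosen with earlier results of these data known. Alternatives were TMM factors (edgeR 4.0.16), median-ratio scaling, other filters, pseudocounts of 0.1 and 5 CPM, division by length, and counting shared counts once, which was chosen after seeing the data.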

Additional observations from a re-analysis of the deposited data

How the results depend on the processing

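The number of gamma genes called higher by Illumina, 22 with total counts, was the call that moved. It was 3 with TMM factors, 1 with median-ratio scaling and 0 with Illumina counts divided by union exonic length. With division by private exonic length it was also 0. When the cluster was counted once, with total counts only, it was 1 of 1. The private length leaves out the shared exons, while the counts include them. It remained 22 with a minimum mean of 5 CPM and with at least 1 count in each library. The share of all genes called higher by Illumina, 10.5% with total counts, was 27.2% and 20.7% under these filters, 9.06% with TMM factors and 8.52% with median-ratio scaling. No alpha or beta gene was called in either direction under any alternative run, and none of either passed the filter of 5 CPM, so that filter gives no value for them. With total counts a lower Nanopore level of these genes was not detectable, so the absence of calls does not show equal levels. Median log2 ratios changed sign with length only: the alpha median became 0.38 with union and 1.10 with private exonic length, and the gamma median 0.14 with private exonic length. With a pseudocount of 0.1 CPM the beta median moved from −0.18 to −1.24. A minimum of 3 Nanopore counts left 0 alpha, 0 beta and 0 gamma genes detected by Nanopore. No paired analysis was possible because there is 1 library per platform. Nanopore depth limits every statement on single members, since none exceeded 2 counts.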
